A study of Mus musculus with 24 samples.

Results

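Ctcf and 8 autosomal genes of the cohesin machinery were examined for accessible chromatin at their starts and across their loci. The 9 genes were taken by name, of 21938 protein-coding genes in the GENCODE vM21 basic annotation, with earlier results of these data known. They were Ctcf, the ring genes Smc3, Rad21 and Stag1, the loader genes Nipbl and Mau2, and the regulators Wapl, Pds5a and Pds5b. Their gene bodies with 20 kb either side held 220 of 233705 windows, each of 501 bp, placed around peak summits and called in at least 2 libraries. Another 3 windows on coding exons of Ctcf, over 1 kb from its start, were kept apart because some of the lines are labelled as overexpressing CTCF.

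Cohesin is a ring-shaped complex that encircles DNA, holds sister chromatids together and extrudes chromatin loops. Nipbl and Mau2 proteins load the ring onto chromatin, Wapl releases it, and Pds5a and Pds5b proteins act with Wapl or with the acetylated, stable ring. CTCF is a zinc finger protein that binds a long GC-rich motif and halts extruding cohesin, so that loop ends in embryonic stem cells often lie at CTCF sites.

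The assay was ATAC-seq, which cuts accessible DNA with a transposase, and it covered 24 libraries of E14 mouse embryonic stem cells, 12 groups of 2. All cells carried CTCF AID, the endogenous protein with a degron through which the auxin IAA brings about its degradation. The CTCF lines were a control line (genotype "overexpressed control") without IAA or with 12 hours of IAA, a line overexpressing wild-type CTCF with 12 hours of IAA, and a line overexpressing mutated CTCF with 12 hours of IAA. The serum set was CTCF AID cells in the serum condition without IAA or with 12 hours of IAA. The Chd4 and Chd8 sets were CTCF AID cells without IAA that carried shluci, shRNA1 or shRNA2, named in the titles for these chromatin remodellers. The labels do not give what the CTCF mutation changes, whether a line is 1 clone, the promoter of the transgenes or the hairpin sequences, and they name serum-free medium for the culture protocol of all samples. Nothing in them says that the replicates were separate cultures, so the spread between them may be technical.

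The peak lists held 59786 to 166697 peaks. Within each set they were reduced to the shortest list by the authors' −log10 p, which left 120137 peaks in the CTCF lines, 80619 in the Chd4 set, 135410 in the Chd8 set and 59786 in the serum set. A peak's strength is given as its percentile of −log10 p within its own reduced list, where 100 is the strongest, so it ranks peaks and is not a level of accessibility. A gene or window with no peak is under the reach of that list and may still be accessible. All 8 embryonic stem cell markers examined, including Pou5f1, Nanog and Esrrb, had a peak within 1 kb of a start in at least 16 libraries, while Col3a1 and Lum of the fibroblast list had none in any library. The other 3 fibroblast genes were called in 17 to 24 libraries, 4 primitive endoderm genes in 17 to 24 and 3 trophoblast genes in 11 to 21. Peaks near starts do not measure RNA, and these counts do not separate the cell types. Loss of CTCF protein and of Chd4 or Chd8 RNA was not measured in these lists.

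A CTCF consensus match (14 bp, either strand, at most 1 mismatch) was found in 8 of the 220 windows, against 5.57% of all windows. The matches in the 5 of these windows called in at least 20 libraries are printed because they carry the comparison with CTCF degradation. Each line gives 30 bases of the GRCm38 genome, the build (mm10) of the deposited coordinates, on the strand of the match, with the match in capitals.
Ctcf, in the window centred 13.9 kb before its start, chr8:105622558-105622587, plus strand, no mismatch: agctgtcgCCACCAGGGGGCAGcagaactg
Smc3, in the window centred 48.6 kb after its start, chr19:53648901-53648930, plus strand, 1 mismatch: ccccgtagCCACTAGAGGGAGCccttgata
Stag1, in the UTR at its start, chr9:100643565-100643594, plus strand, no mismatch: cagcgcggCCAGCAGAGGGCGGtcgggacc
Pds5b, in the window centred 7.99 kb before its start and near that of N4bp2l2, chr5:150665759-150665788, minus strand, 1 mismatch: acttccccCCACTACAGGGCGGggaacaag
Pds5b, just before its start, chr5:150673685-150673714, plus strand, 1 mismatch: ccgtgcggCCGGTAGGGGGCGCtgagaacc
The other 3 matches lay in windows of Nipbl (a coding exon), Wapl (88.6 kb after its start) and Pds5b (an intron), called in 6, 4 and 2 libraries. A match describes letters and does not show that CTCF binds there.

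All 9 genes had a peak within 1 kb of a start in each of the 8 libraries of the CTCF lines and in each of the 4 serum libraries. Of all protein-coding genes, 66.5% and 61.4% had one in every library of these sets. In the Chd8 set 7 of the 9 genes were called in all 6 libraries, against 53.9% of genes, and Nipbl and Pds5a were called in 4 of 6. In the Chd4 set only Wapl was called in all 6, against 25% of genes. Wapl was also the one gene of the 9 called in all 24 libraries, as were 24% of all genes. The start of 5830448L01Rik lies within 1 kb of it, so a peak there is shared. The percentile of Wapl lay between 93.2 and 99.9, while that of Nipbl ran from no peak to 91.3. The sets differ in list length and in peak width, so levels are not compared across them.

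**Figure D1:**
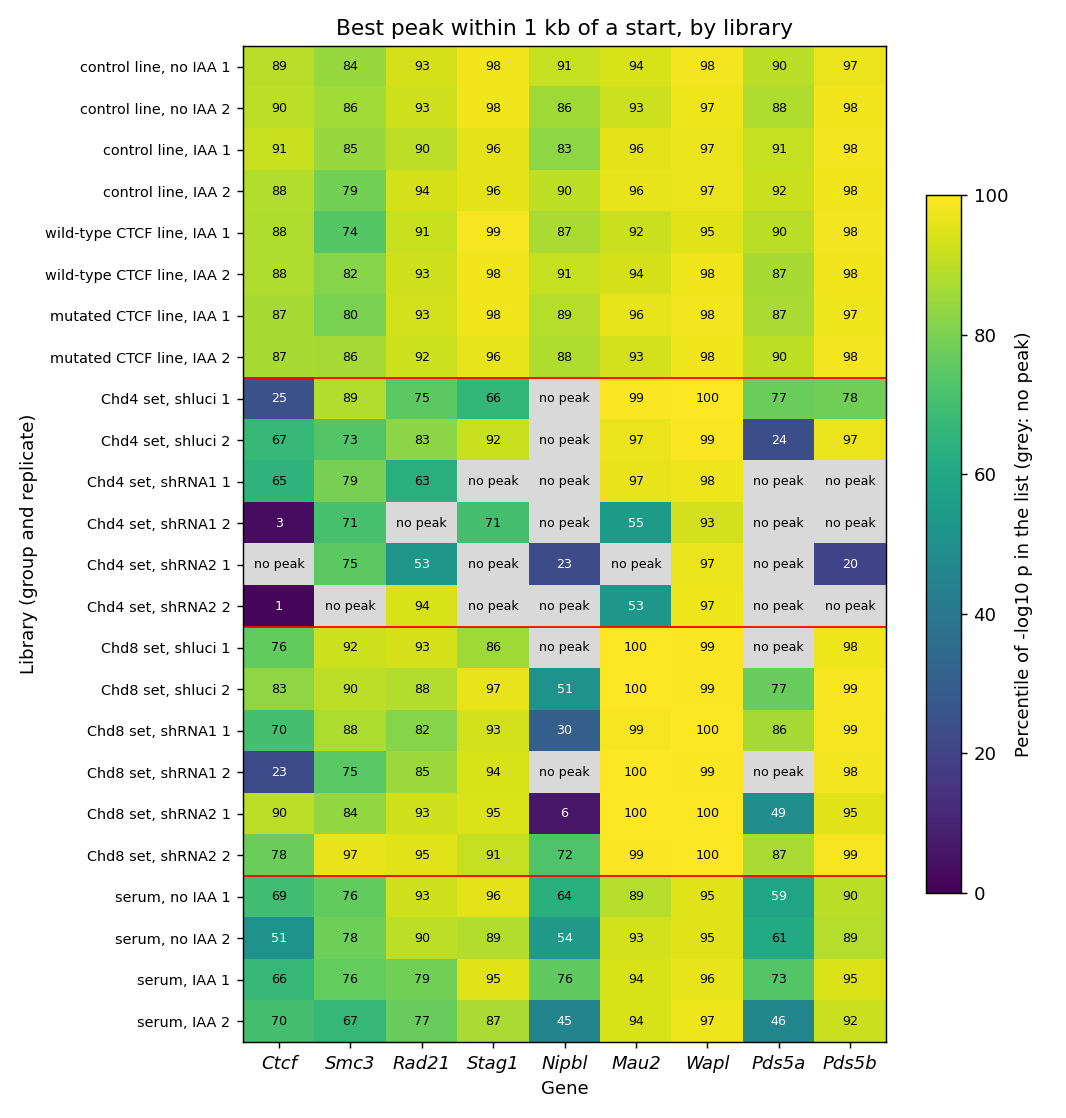
Percentile of −log10 p of the best peak within 1 kb of a start for the 9 genes (columns) in each of the 24 libraries (rows), with red lines between the 4 sets and grey cells where the list had no peak. Every cell of the CTCF lines and of the serum set holds a peak, and the grey cells lie in the Chd4 set and in the Nipbl and Pds5a columns of the Chd8 set.

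The start of Ctcf, the gene for the degraded protein, kept its peak after IAA. Its percentiles in serum-free medium were 89.2 and 89.9 without IAA, 91.4 and 88.4 with IAA, 88.1 and 87.9 with wild-type CTCF, and 87.1 and 86.9 with mutated CTCF. In serum they were 69.4 and 50.9 without IAA and 66.5 and 70.4 with IAA. The median over all genes with a start peak was 87.7 and 87.3 in the control line with IAA, and 80.1 and 78.6 in serum with IAA. Ctcf thus lay near the typical start in serum-free medium and below it in serum. With and without IAA the Ctcf values overlapped in both media. All 4 libraries overexpressing CTCF lay below both control libraries with IAA, at the nearest 88.1 against 88.4. Against those control libraries, 3 of the 9 genes lay below and 1 above in the wild-type line, and 2 below and 2 above in the mutated line. The share of all genes is not given for this, and no test was run. The start regions of Agrp and Gm5914 lie within 1 kb of the Ctcf start, so a peak there is shared.

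Of the ring genes, Smc3 encodes a coiled-coil subunit, Rad21 the kleisin that closes the ring and Stag1 a subunit that binds Rad21 and contacts CTCF. Rad21 had percentiles of 93.4 and 92.6 without IAA and 90.2 and 93.6 with IAA in serum-free medium, which overlap. In serum it had 92.7 and 89.9 without IAA and 78.6 and 76.8 with IAA, which do not overlap. For all genes, the share without overlap within a single medium is not given. The difference in serum alone was not tested. Stag1 lay at 98.0 and 97.8 without and 95.9 and 96.0 with IAA in serum-free medium, with the wild-type line at 98.8 and 97.9 and the mutated line at 97.9 and 96.3. In serum its values of 95.9 and 88.7 without IAA overlapped those of 95.0 and 87.4 with IAA. Smc3 lay between 73.7 and 86.4 in the CTCF lines and between 66.6 and 78.0 in serum. Its values with and without IAA overlapped in each medium, and each overexpressing line overlapped the control line with IAA. The wild-type line, at 73.7 and 81.9, lay below the control line without IAA, at 84.4 and 86.0. The start of AC137853.1 lies within 1 kb of that of Smc3.

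Mau2, the loader's partner of Nipbl, was the single gene of the 9 whose start peak ranked higher with IAA in both media. Its percentiles were 93.8 and 92.5 without IAA and 96.0 and 96.1 with IAA in serum-free medium, and 88.9 and 93.2 against 93.8 and 93.9 in serum. The mean difference was 2.84 percentile points, with an exact two-sided permutation p of 0.05556 within media, the smallest that its 36 arrangements allow, and an adjusted p of 0.612 over 16102 genes. That smallest p was reached by 9.08% of genes, and the direction without overlap in both media by 4.50% of them. Its region is shared with the start of Sugp1. The test could not pass 0.05 for any gene. The Mau2 difference was 7.49 points with a −log10 q of at least 10 and 1.76 without replicate 1 of serum without IAA. Rad21 had the largest mean difference of the 9 in this measure, −7.36 points, with an exact permutation p of 0.167, and −12.5 points at that stricter q. Nipbl, Wapl, Pds5a, Pds5b and the rest overlapped in at least 1 medium or moved in different directions.

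In serum-free medium 3 of the 220 windows of the loci were called in both libraries without IAA and in neither with it, which is 1.36% against 3.52% of all windows. In serum 6 were lost, 2.73% against 2.04%. These were 2 (0.909%) at deposited list length (1.64% of all windows), at 50% of the shortest length (1.05%) and with at least 50% of the window covered (1.14%). At a −log10 q of at least 10 they were 0 (0.401%), so at these settings the share was below that of all windows. A single window was lost in both media, 0.455% against 0.651%, and it lay in an intron of Wapl at chr14:34718528-34719028, 44.6 kb after the start. Its peaks were weak, with percentiles of 22.5 and 0.886 in serum-free medium and 0.646 and 14 in serum without IAA. It held no consensus match. No window of the loci was lost in both media with lists at their deposited length or at 50% of the shortest length, at a −log10 q of at least 10, or with at least 50% of the window covered.

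None of the 5 consensus windows called without IAA was lost in either medium. Of all consensus windows called without IAA, 34.8% were lost in serum-free medium, 40.8% in serum and 20.4% in both. Of those within 1 kb of a protein-coding start, such as the windows at the Stag1, Pds5b and N4bp2l2 starts, 1.89% were lost in both media. A second measure was whether the percentile was lower in both IAA libraries than in both libraries without IAA, in each medium. This held for 2 of the 5, at Ctcf and Smc3, against 53.9% of all consensus windows, 20.7% of those near protein-coding starts and 8.35% of windows without a match.

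The Smc3 window 48.6 kb after the start showed the larger of these differences. Its percentiles were 79.0 and 68.9 without IAA and 50.9 and 34.5 with IAA in serum-free medium, and 63.7 and 67.9 against 8.99 and 30.6 in serum. The wild-type line had 55.2 and 58.1 and the mutated line 42.7 and 44.6. The wild-type values therefore lay above both control libraries with IAA and below both without it, and the mutated values fell between the 2 control libraries with IAA. The nearest wild-type and control values with IAA were 55.2 and 50.9, while the 2 control libraries with IAA themselves lay at 50.9 and 34.5. How many consensus windows show this order was not counted, and the difference between the lines was not tested. The Ctcf window 13.9 kb before its start had 93.5 and 92.9 without and 92.6 and 90.9 with IAA in serum-free medium, and 97.1 and 88.8 against 81.3 and 79.3 in serum. In both lines overexpressing CTCF it was lower still, at 86.1 and 88.5 with wild-type and 85.9 and 82.2 with mutated CTCF. The neighbouring window 13.3 kb before the start was covered by the same peaks and had the same values.

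At the start of Stag1, where the 30 printed bases hold an exact match, the peak ranked 98.0 and 97.8 without IAA and 95.9 and 96.0 with IAA in serum-free medium. The Pds5b window just before the start ranged from 97.2 to 98.4 in the CTCF lines, with 98.3 and 97.7 with IAA against 97.2 and 97.9 without. The window near N4bp2l2 ranged from 98.1 to 99.7 over the CTCF lines and serum. These 3 windows ranked at 87.4 or higher in every library of the CTCF lines and serum set. Another 2 windows, 32.9 and 33.6 kb after the start of Rad21 and covered by 1 peak in these sets, had no match but ranked lower with IAA in both media. The percentiles of both Rad21 windows were 92.4 and 91.9 against 90.4 and 88.9 in serum-free medium, and 86.1 and 77.4 against 28.2 and 67.5 in serum, and both windows were called in all 24 libraries. Of the 47 windows of the loci called in all 4 libraries without IAA, 7 ranked lower in both media, 14.9% against 12.2% of all windows so called, and 3 ranked higher in both media (1 at Smc3 and 2 at Mau2), 6.38% against 4.68%. In all, 8 of the 220 windows were called in all 24 libraries, 3.64% against 3.72% of all windows: 3 at Wapl, 2 at Rad21, and 1 each at Ctcf, Mau2 and Pds5b.

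**Figure D2:**
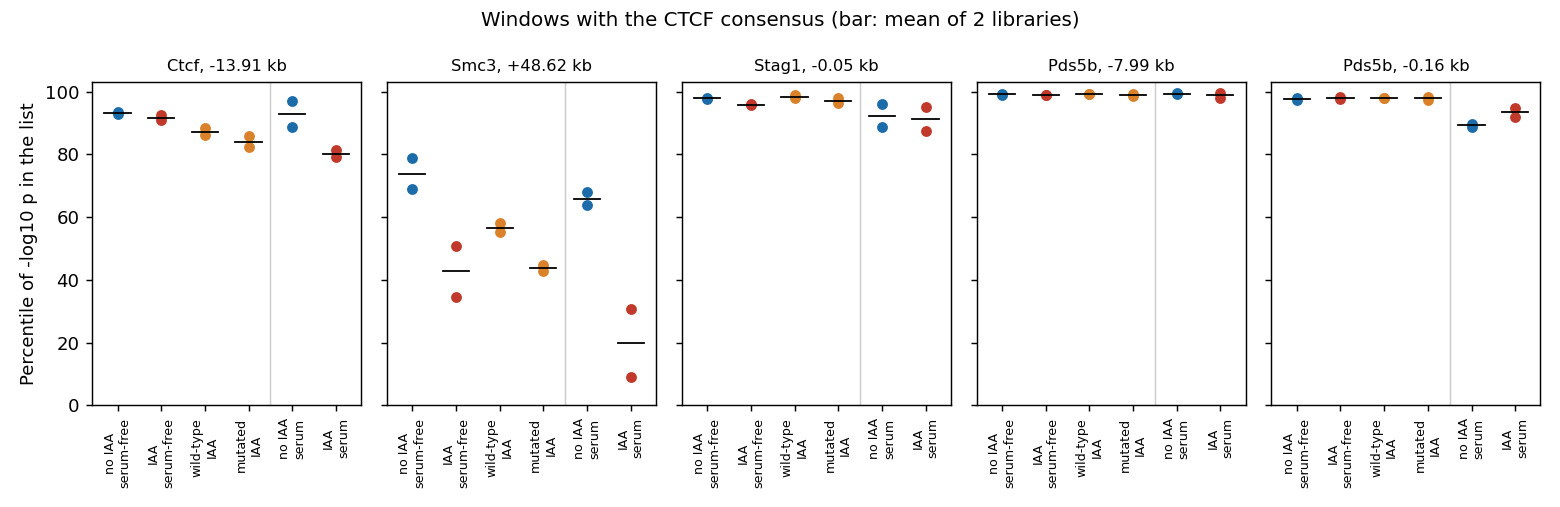
Percentile of −log10 p (vertical axis) of the 5 consensus windows in the 6 groups of the CTCF lines and serum set, with 1 point a library, a bar at the mean of each pair, blue without IAA, red with IAA and orange for the lines overexpressing CTCF. The Smc3 window falls to 8.99 and 30.6 with IAA in serum, whereas the windows at or near the Stag1 and Pds5b starts stay at 87.4 or above.

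With IAA in serum-free medium there were 15 gains, 6.82% against 2.91% of all windows, of which 5 lay in Stag1, 4 in Wapl, 3 in Pds5a, 2 in Nipbl and 1 in Smc3. They numbered 12 at deposited list length (2.16% of all windows), 6 with at least 50% of the window covered (2.37%), 2 at a −log10 q of at least 10 (1.15%) and 1 at 50% of the shortest length (1.74%), so at the last 2 settings the share was below that of all windows. In serum there were 4 gains, 1.82% against 2.24%, and no window was gained in both media, against 0.0655% of all windows. Of the Wapl gains, 2 were covered by the same peak in both libraries with IAA. The gained peaks in serum-free medium had percentiles between 1.03 and 50.9, and only the Smc3 window had a value above 50. The gained Wapl window with a consensus match, 88.6 kb after the start, had 6.11 and 1.03 with IAA and no peak in either line overexpressing CTCF.

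Across the Stag1 locus, the longest of the 9 at 361.6 kb, the control line had 21 and 23 peaks without IAA and 29 and 27 with IAA. The wild-type line had 21 and 24 and the mutated line 32 and 31. In serum the numbers were 12 and 11 without IAA and 14 and 16 with IAA. Stag1 was the single gene of the 9 with more peaks in every IAA library in both media, which 0.991% of all genes showed. That share was not matched for locus length or number of peaks. The mean difference was 4.75 peaks, with an exact permutation p of 0.05556, the smallest possible, and an adjusted p of 1 over 19774 genes, and 3.44% of genes reached that p. With a −log10 q of at least 10 the difference was 0. At deposited list length it was 11.5 peaks, where replicate 2 of serum with IAA had 39 and the wild-type line, at 29 and 31, had the same numbers as the control line with IAA. The control libraries with IAA had shorter deposited lists than those without (120137 and 128794 peaks against 132912 and 139221) and median peak lengths of 456 and 364 bp against 373 and 342 bp, and the part of this in the counts was not tested.

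Both lines overexpressing CTCF were set against the same 2 control libraries with IAA. The wild-type line had lost 10 windows (4.55% against 2.55%) and gained 3 (1.36% against 2.37%). The mutated line had lost 7 (3.18% against 1.92%) and gained 5 (2.27% against 2.25%). Between the lines themselves, the mutated line had 8 windows that the wild-type line lacked (3.64% against 2.02%), 5 in Stag1 and 3 in Pds5a, and lacked none (0 against 1.41%). These counts depended on the lists. At deposited length the wild-type line had lost 2 (0.909% against 1.54%), so that its share of losses was below that of all windows, and the mutated line 4 (1.82% against 1.27%). The mutated line's share was below at 50% of the shortest length (0.455% against 1.04%), at a −log10 q of at least 10 (0 against 0.543%) and at 50% cover (0.909% against 1.34%). At these 3 settings that of the wild-type line was above (1.82%, 1.36% and 2.27% against 1.40%, 0.781% and 2.26%). At deposited length the mutated line had 3 windows that the wild-type line lacked (1.36% against 1.96%), a share below that of all windows, and lacked 2 (0.909% against 1.78%).

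**Figure D3:**
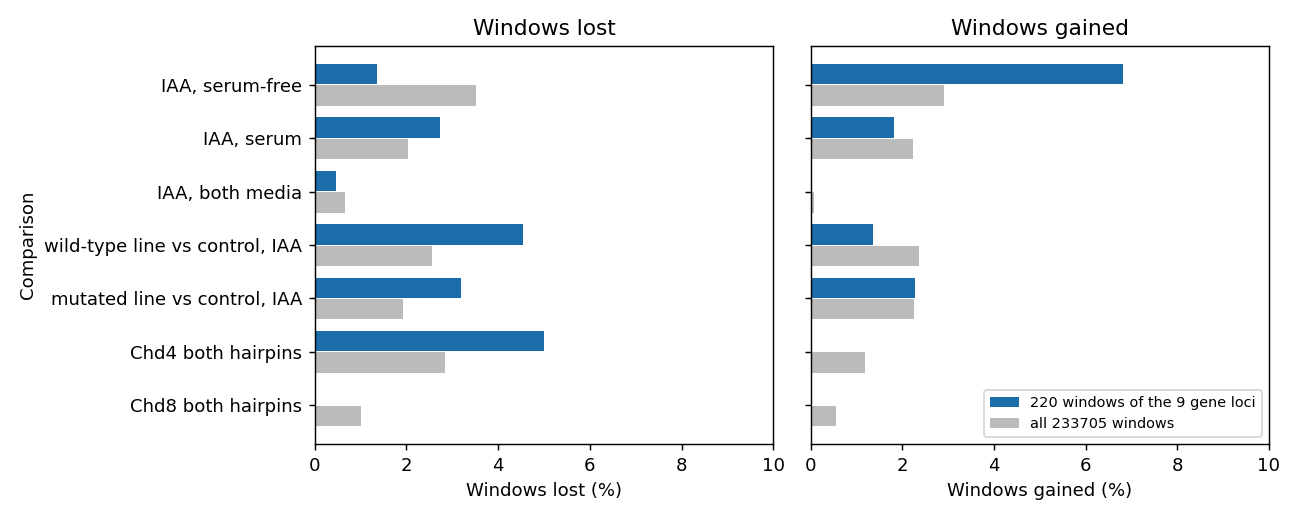
Percentage of windows lost (left) and gained (right) in each comparison (rows), for the 220 windows of the 9 loci (blue) and all 233705 windows (grey). With the reduced lists the blue bar is above the grey bar for gains with IAA in serum-free medium (6.82% against 2.91%) and for losses with IAA in serum, in both lines overexpressing CTCF and with Chd4 hairpins, is about level with it for gains in the mutated line, and both bars are near 0 for IAA in both media.

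Peaks on coding exons of Ctcf, over 1 kb from its start, were found in every library of the lines overexpressing CTCF. The wild-type line had 3 and 2 and the mutated line 2 and 2, while the control line had 0 in each of its 4 libraries. In the other 16 libraries 3 had 1 such peak each (Chd4 set shRNA1 replicate 1, Chd8 set shluci replicate 1 and serum with IAA replicate 2). These counts use the lists as deposited. Ctcf was the one gene of 21938 (0.00456%) with at least 2 such peaks in each of the 4 overexpressing libraries and none in the 4 control line libraries, and 22 genes (0.100%) met this with at least 1. Ctcf no longer met the rule of 2 with at least 90% of the peak on coding exons (3 and 1 peaks in the wild-type and 2 and 1 in the mutated line) or at a −log10 q of at least 10 (2 and 1 in each line), and no gene did. With at least 1 peak, Ctcf was among 9 genes at 90% and among 11 at that q.

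The peaks on the longest coding part, 781 bp and 27.2 kb after the start, were 544 and 603 bp long in the wild-type line and 564 and 570 bp in the mutated line, and all 4 lay wholly on coding sequence. A 189 bp coding part, 43.5 kb after the start, also carried a peak in all 4 libraries. In replicate 1 of the mutated line that peak ran over chr8:105680068-105680255, with 185 of its 188 bp on the exon. In the other 3 libraries, 121 of 121, 189 of 280 and 161 of 199 bp of this peak were coding. The wild-type replicate 1 alone had a peak on a 183 bp coding part, 155 bp long. The authors' fold at these 9 summits was between 5.21 and 7.63 and their percentiles in the reduced lists between 16.1 and 53.5, below those of the Ctcf start (86.9 or more) in the same libraries.

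The 189 bp part is printed on the plus strand, chr8:105680041-105680289, with coding bases in capitals and 30 intronic bases either side, because it carried a peak in all 4 overexpressing libraries.
Ctcf coding part: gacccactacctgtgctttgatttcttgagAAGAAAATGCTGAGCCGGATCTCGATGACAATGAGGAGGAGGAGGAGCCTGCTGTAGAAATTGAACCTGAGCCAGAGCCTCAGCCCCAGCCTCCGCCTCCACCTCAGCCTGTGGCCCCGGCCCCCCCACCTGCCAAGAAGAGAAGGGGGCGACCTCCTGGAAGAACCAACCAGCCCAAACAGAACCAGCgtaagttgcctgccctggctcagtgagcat
A transgene made from cDNA carries exons without introns, and its fragments align to the exons of the endogenous gene. The labels name overexpressed CTCF in these lines and not the construct, and the part of a transgene in these peaks was not tested. The same peaks are therefore left out of all window and locus counts.

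**Figure D4:**
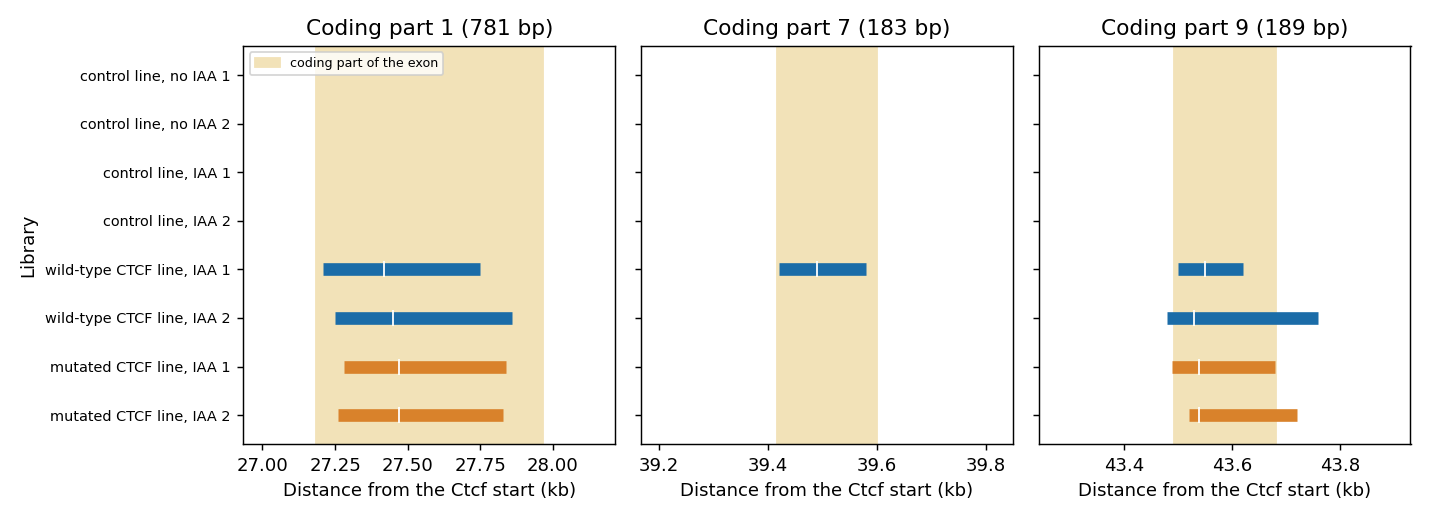
Extent of each peak (bars, summit as a white tick) on 3 coding parts of Ctcf, by distance from the Ctcf start in kb, in the 8 libraries of the CTCF lines, with the coding sequence shaded. The 4 control line rows are empty, and the bars of the lines overexpressing CTCF on the first coding part lie wholly within the shaded exon.

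With the Chd4 hairpins the start calls of the 9 genes became fewer. The shluci libraries called 8 and 8 genes, shRNA1 5 and 5, and shRNA2 5 and 4, so the hairpin libraries did not overlap the shluci ones. At deposited length the numbers were 8 and 8, 5 and 6, and 6 and 4. Over all genes the share with a start peak was 54.0% and 54.9% with shluci, 47.2% and 48.0% with shRNA1, and 40.2% and 45.8% with shRNA2, which moved the same way. The part of this list-wide difference in the members' calls was not tested. Percentiles below both shluci libraries in all 4 hairpin libraries were found for Mau2, Wapl, Pds5a and Pds5b, 4 of 9 against 21.4% of genes. At deposited length it was Stag1, Wapl, Pds5a and Pds5b, against 19.98% of genes, and at a −log10 q of at least 10 it was 2, Mau2 and Wapl, against 34.3% of genes. No member lay above in all 4, against 4.13%.

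Pds5a had percentiles of 77.2 and 24.1 with shluci and no peak in any of the 4 hairpin libraries, and it was the single member whose start call was lost with both hairpins, as was that of 4.35% of genes called with shluci. At deposited list length shRNA1 replicate 2 did have a Pds5a start peak, which ends that call. For Pds5b the start peak stood at 78.3 and 97.2 with shluci, and shRNA2 replicate 1 was the hairpin library with a peak near any of its starts, at 20.1. The consensus window just before the Pds5b start was called in none of the 4. Wapl, by contrast, was called in all 6 libraries and ranked 99.7 and 99.4 with shluci, 97.6 and 93.2 with shRNA1 and 96.9 and 97.4 with shRNA2. Those Wapl values did not overlap, though the lowest was still 93.2.

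The bases just upstream of Pds5a and of the first Pds5b start are printed from the RefSeq promoter table (GRCm38.p6), which matched 7 of the 9 genes. In the reduced lists the windows at these stretches were called in no hairpin library. Capitals mark the consensus match, which Pds5b has and Pds5a lacks.
Pds5a, chr5:65698274-65698486, minus strand: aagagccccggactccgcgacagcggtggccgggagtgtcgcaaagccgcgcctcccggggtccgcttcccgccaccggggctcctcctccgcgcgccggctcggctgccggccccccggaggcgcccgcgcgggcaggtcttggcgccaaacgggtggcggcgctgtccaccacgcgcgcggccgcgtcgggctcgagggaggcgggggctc
Pds5b, chr5:150673577-150673738, plus strand: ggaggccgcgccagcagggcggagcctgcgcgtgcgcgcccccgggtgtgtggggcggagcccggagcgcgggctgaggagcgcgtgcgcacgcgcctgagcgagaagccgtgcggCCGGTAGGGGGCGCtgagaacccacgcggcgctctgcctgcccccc
Within 500 bp of the start, Pds5a had 16.5 CpG per 100 bp and Pds5b 10.1, and the 9 genes ranged from 8.70 to 16.5. The median over all protein-coding genes was 4.30 and the upper quartile 7.10, so all 9 lay above the upper quartile. Wapl, whose peak was kept, had 11.4.

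Mau2, of the loader, ranked 99.3 and 97.1 with shluci, 96.6 and 54.7 with shRNA1, and 53.0 in shRNA2 replicate 2, with no peak in shRNA2 replicate 1. Stag1 ranked 66.4 and 91.6 with shluci and was called in 1 hairpin library, shRNA1 replicate 2, at 70.7. Ctcf ranked 24.9 and 67.1 with shluci and 65.1, 3.44, no peak and 1.31 with the hairpins, so that its groups overlapped. Rad21 and Smc3 overlapped as well, and Nipbl had no peak with shluci.

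Across the loci, 11 of 220 windows were called in both shluci libraries and in none of the 4 hairpin libraries, 5.00% against 2.83% of all windows. None was gained, against 1.19%. Of the 50 windows of the loci called with shluci, that is 22.0% against 14.2% of all such windows. Ctcf held 5 of the 11, Pds5b 3, and Rad21, Mau2 and Pds5a 1 each. The 3 with the highest percentiles were the Pds5b start, a window at Gatad2a in the Mau2 flank (72.7 and 89.0 with shluci) and a window 51.1 kb after the Ctcf start (62.0 and 85.9). Of the other Ctcf windows, 2 lay within 1 kb of the start of Carmil2, 1 within 1 kb of those of Acd and Pard6a, and 1 in an intron of Ctcf.

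The number of peaks per locus was below shluci in all 4 hairpin libraries for 5 of the 9 genes, Ctcf, Smc3, Rad21, Stag1 and Pds5b, against 18.5% of all genes. At deposited list length this held for 3, Ctcf, Smc3 and Stag1, against 13.9% of all genes, and in the gene bodies alone for Ctcf, Stag1 and Pds5b (10.6%). With a −log10 q of at least 10 the 5 were Ctcf, Stag1, Mau2, Wapl and Pds5b (31.1%), and with 50 kb flanks Ctcf, Smc3, Stag1, Wapl and Pds5b (25.2%). The share of all genes thus rose with the length counted, from 10.6% to 18.5% and 25.2%. It was not matched for locus length or number of peaks. Ctcf had 15 and 18 with shluci, 6 and 11 with shRNA1, and 2 and 8 with shRNA2. Pds5b had 13 and 13, then 6, 8, 7 and 7. Stag1 had 22 and 19 against 14, 14, 6 and 14. At deposited length Rad21 had 14 and 11 with shluci against 16, 5, 14 and 6, and Pds5b 21 and 19 against 14, 9, 19 and 7, so both overlapped. In the reduced lists Wapl had 11 and 10 with shluci and 11, 10, 13 and 10 with the hairpins. Nipbl went the other way in part, with 1 and 0 against 7, 1, 7 and 7. With 2 libraries against 4 the smallest exact permutation p is 0.0667, and no test was run for these counts. Replicates numbered 1 in this set had longer deposited lists (135583 to 141742 peaks) than those numbered 2 (80619 to 93091).

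**Figure D5:**
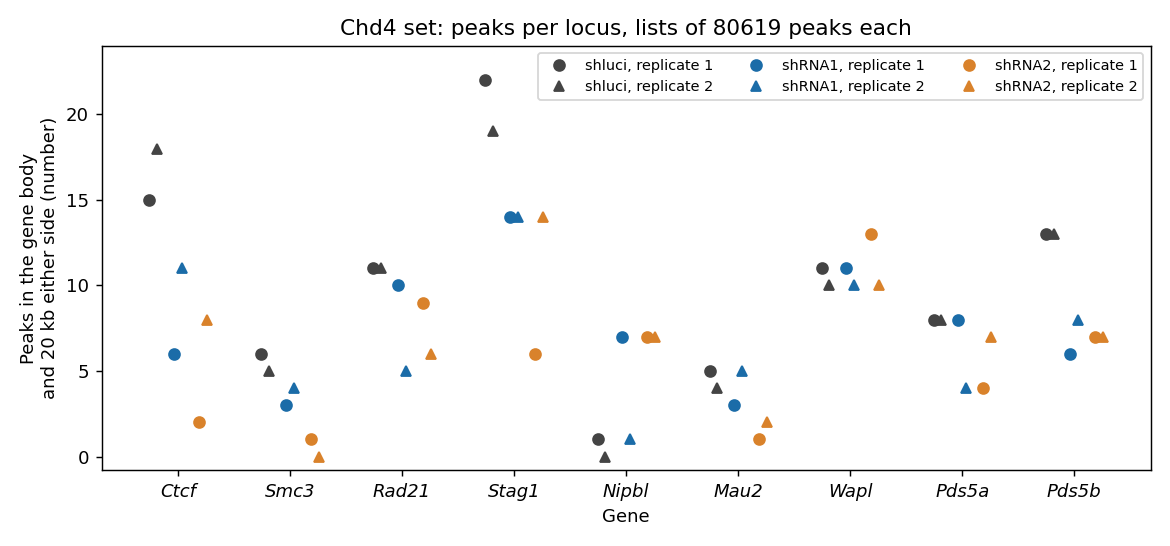
Number of peaks in the gene body and 20 kb either side (vertical axis) for each of the 9 genes in the 6 libraries of the Chd4 set, coloured by group, with circles for replicate 1 and triangles for replicate 2. Ctcf, Smc3, Rad21, Stag1 and Pds5b have fewer peaks in all 4 hairpin libraries than in both shluci libraries of these reduced lists, and Rad21 and Pds5b do not at deposited list length.

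With the Chd8 hairpins no window of the loci was lost in all 4 libraries (0 against 1.01%) and none was gained (0 against 0.552%). No gene of the 9 had a start percentile below or above shluci in all 4 hairpin libraries, against 6.17% and 3.99% of genes, or a peak number below or above, against 3.86% and 3.85%. Mau2 ranked between 98.7 and 99.9 and Wapl between 99.4 and 99.9 in all 6 libraries. Nipbl and Pds5a lacked a start peak in the same 2 libraries, shluci replicate 1 and shRNA1 replicate 2. At deposited length Nipbl had a start peak in both of them and Pds5a in neither. These libraries also had the narrowest peaks of the set (medians of 81 and 75 bp against 95 to 138 bp). The part of peak width in these calls was not tested.

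Among other genes of the pathway, 7 of 12 somatic partners of cohesin were called at a start in all 24 libraries, against 24% of all genes. None of the 12 was called in fewer than 21. Smc1a, the X-linked partner of Smc3 in the ring, was called in all 24, and Stag2, the X-linked relative of Stag1, in 22. Of 6 germline cohesin genes and paralogs, Rec8 and Stag3 were called in all 24, Rad21l in none and Ctcfl, the germline relative of Ctcf, in 3. Of 6 other loop or insulator binding proteins, including Yy1, Zfp143 and Adnp, none was called in all 24 and each was called in 20 to 22. The same 24% of all genes is the share to set beside the germline and the loop or insulator lists. With both Chd4 hairpins 4 of the 12 somatic partners (Cdca5, Esco2, Sgo2a and Espl1) had a start percentile below shluci in all 4 libraries, against 21.4% of genes. Of the 12, 0 lay above, against 4.13% of genes.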

How the data were processed

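Peak lists of 24 ATAC-seq libraries were used as deposited by the authors. Trim Galore, Bowtie2, MACS2, deepTools and the mm10 build are named in the submitters' processing notes, without their settings. The deposited columns were a score, a fold (a ratio of summit signal to background), a −log10 p and a −log10 q per peak, all the authors' values, used to rank and filter peaks within a list. Read depth is not given in the sources used here, so no counting interval was computed, and precision rests on 2 libraries a group.

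Lists were reduced to the shortest of their set. A library called a window of 501 bp when a peak overlapped it by at least 1 bp, and windows called in at least 2 libraries were kept (233705 of 405819). A window was lost when all reference and no treated libraries called it, and gained when the reverse held. No test per window was run, since 2 libraries against 2 cannot give a two-sided exact permutation p below 0.333. With IAA in both media, library labels were permuted within medium (36 arrangements, two-sided) for every protein-coding gene with Benjamini-Hochberg adjustment. The call rules and this test were tested on simulated data. Starts were those of GENCODE vM21 basic transcripts. All peaks lay inside the GRCm38 chromosome lengths. Python 3.11.15, numpy 2.4.6 and pandas 2.3.3 were used. The members and lists were chosen with earlier results of these data known. All 9 members were named, with windows lost in both media, the strongest 3 lost or gained with both hairpins of a set, consensus windows, and Ctcf coding exon peaks; other windows (the gains, the 2 Rad21 windows) were chosen after their values were seen. Alternatives changed list length, the −log10 q minimum (10), overlap, flanks, reach around starts and libraries.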

Additional observations from a re-analysis of the deposited data

Results flagged for a closer look

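The start peak of Wapl ranked lower with IAA in both serum-free libraries and higher in both serum libraries. The mean difference in percentile was −0.736 in serum-free medium (98.4 and 97.5 against 97.1 and 97.2) and 1.65 in serum (95.0 and 95.3 against 96.3 and 97.3). The difference between the media was not tested. The number of peaks at the Stag1 locus was lower in both wild-type CTCF libraries than in both control libraries with IAA, by a mean of −5.50, and higher in both mutated CTCF libraries, by a mean of 3.50. Both lines share the 2 control libraries (29 and 27 peaks), and the wild-type list of replicate 1 was the longest of the set as deposited (155087 peaks). At deposited length the wild-type line (29 and 31) no longer lay below the control line (29 and 31), while the mutated line had 37 and 36. The difference between the lines was not tested.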

How the results depend on the processing

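Over 28 results, 316 values were recomputed under other settings, and 203 were taken as kept. Counts were kept within 1.5 times, and differences of a named gene when the sign was the same, whatever the p. The mean number of start calls was kept within its standard deviation over libraries. Shares are of the windows of the loci against all windows. Windows lost with IAA in serum-free medium numbered 1 (0.455% against 1.99%) with lists at 50% of the shortest length and 5 (2.27% against 3.46%) at a −log10 q of at least 10. In serum they numbered 2 (0.909%) at deposited length (1.64% of all), at 50% of the length (1.05%) and at 50% cover of the window (1.14%), 0 at that q (0.401%) and 3 of 133 (2.26% against 2.04%) in the gene bodies. The 1 window lost in both media became 0 at deposited length, at 50% of the length, at that q and at 50% cover. Losses with both Chd4 hairpins numbered 6 (2.73% against 2.13%) at 50% of the length and 5 of 133 (3.76% against 2.83%) in the gene bodies. Chosen after seeing the data, libraries numbered 1 alone gave 35 (15.9% against 10.1%) and those numbered 2 alone 24 (10.9% against 9.92%). For Chd8 the losses numbered 1 at that q (0.455% against 0.183%), 1 with 50 kb flanks (0.307% against 1.01%), and 15 (6.82% against 7.26%) and 12 (5.45% against 8.82%) for libraries numbered 1 and 2 alone. Fewer libraries make the call rule easier to meet over all windows too. Leaving out 1 library gave 7 to 11 losses in serum-free medium (3.18% to 5.00% against 5.85% to 6.29%), 6 to 12 in serum (2.73% to 5.45% against 3.05% to 4.76%), 1 to 2 in both (0.455% to 0.909% against 0.703% to 1.02%), 12 to 25 for Chd4 (5.45% to 11.4% against 3.49% to 6.66%) and 0 to 6 for Chd8 (0 to 2.73% against 1.36% to 4.79%). Of these, serum 0 h replicate 2 gave the 2 in both media, and Chd4 shluci replicates 1 and 2 gave 19 and 25. The mean start calls per library fell from 8.04 to 6.33 of 9 at the stricter q. The 9 Ctcf exon peaks were 6 to 7 without 1 library, and the 3 in other libraries were 1 in reduced lists, 1 with 50% of the peak on an exon and 0 at the stricter q.

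The following settings were chosen after seeing the data. Gains with IAA in serum-free medium, 15 as reported, numbered 6 (2.73% against 2.37%) at 50% cover, 2 (0.909% against 1.15%) at the stricter q and 1 (0.455% against 1.74%) at 50% of the length. Those in serum, 4 as reported, numbered 9 (4.09% against 3.53%) at deposited length and 1 (0.455% against 1.15%) at 50% of the length. For the lines, values are at deposited length, 50% of the length, the stricter q and 50% cover in turn. The losses of the wild-type line against the control line, 10 as reported, were 2, 4, 3 and 5, which is 0.909%, 1.82%, 1.36% and 2.27% against 1.54%, 1.40%, 0.781% and 2.26% of all windows. Its gains, 3 as reported, were 5, 0, 1 and 4, which is 2.27%, 0, 0.455% and 1.82% against 3.46%, 1.16%, 2.53% and 1.20%. The losses of the mutated line, 7 as reported, were 4, 1, 0 and 2, which is 1.82%, 0.455%, 0 and 0.909% against 1.27%, 1.04%, 0.543% and 1.34%. Its gains, 5 as reported, were 6, 2, 2 and 6, which is 2.73%, 0.909%, 0.909% and 2.73% against 3.18%, 1.14%, 2.42% and 1.89%. Windows lacking in the mutated but not the wild-type line, 0 as reported, were 2, 1, 2 and 0, which is 0.909%, 0.455%, 0.909% and 0 against 1.78%, 0.779%, 0.991% and 0.764%. The reverse, 8 as reported, were 3, 2, 4 and 10, which is 1.36%, 0.909%, 1.82% and 4.55% against 1.96%, 1.12%, 1.20% and 2.26%. The 0 gains with both Chd8 hairpins were 1 (0.455% against 0.308%) at 50% of the length.

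Leaving out 1 library gave 18 to 30 gains in serum-free medium (8.18% to 13.6% against 5.08% to 7.73%), 9 to 17 in serum (4.09% to 7.73% against 3.91% to 5.60%) and 0 to 2 in both (1 and 2 without serum 12 h replicates 2 and 1; 0.104% to 0.186% of all windows). For the wild-type line it gave 16 to 28 losses (7.27% to 12.7% against 4.41% to 7.16%) and 6 to 12 gains (2.73% to 5.45% against 4.39% to 5.68%), and for the mutated line 10 to 18 losses (4.55% to 8.18% against 4.03% to 5.82%) and 9 to 14 gains (4.09% to 6.36% against 4.53% to 5.64%). Between the lines, the mutated line lacked 2 to 10 (0.909% to 4.55% against 3.20% to 5.05%) and gained 10 to 19 (4.55% to 8.64% against 4.16% to 6.28%). Gains numbered 0 to 1 for Chd4 (1.71% to 1.89% of all windows) and 1 to 3 for Chd8 (0.455% to 1.36% against 0.878% to 2.87%). Members with fewer peaks per locus with both Chd4 hairpins, 5 as reported, numbered 3 at deposited length (13.9% of all genes) and in the gene bodies (10.6%), and 5 to 6 without 1 library (21.1% to 30.5%). Members with a lower start percentile, 4 as reported, numbered 2 at the stricter q (34.3% of all genes) and 4 to 6 without 1 library (25.1% to 34.4%). The 1 gene with at least 2 coding exon peaks in each overexpressing library, Ctcf, became 0 with 90% of the peak on an exon and at the stricter q.

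Replicate numbers were shared between groups, but with IAA the same-numbered libraries hardly deviated together (correlation of deviations 0.0686 and 0.0186), and nothing in the labels pairs them, so they were not treated as pairs. Over the 9 comparisons this ran from −0.158 (Chd8 shRNA1) to 0.124 (mutated against wild-type CTCF), and in the Chd4 set the number went with list length. The call rule uses all libraries of a group, so no pairing, crossed or not, alters its calls. With a replicate block the smallest exact permutation p is 0.125, reached by 2 members for peak number and 2 for start percentile, against 1 and 1 without it. Without the block these were 0 for peak number at the stricter q and without serum 0 h replicate 2, and 0 to 2 for start percentile (2 without control line with IAA replicate 2, 0 without serum 12 h replicate 1). The Stag1 difference in peak number was 0 at the stricter q and 11.5 at deposited length, against 4.75 as reported. That of Smc3 was −0.50 at the stricter q against 1.25; causes were not tested.

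Depth is unknown, and 2 libraries a group do not allow a test of a window to pass 0.05. A call near a list's limit can change with small differences in signal.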
